A study of Homo sapiens with 12 samples.

Results

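FoxK1 peaks were examined across the large histone gene cluster of chromosome 6, in the window from 26000001 to 28000000 of the human genome build hg19. Members were all peaks whose summit lay in this window, 601 of the 223205 peaks deposited, and peaks that shared at least 1 bp across libraries were merged into regions, which gave 140 of the 68127 regions of the genome. FoxK1 is a forkhead transcription factor. Its binding was mapped by ChIP-seq in HepG2, a line derived from a human hepatocellular carcinoma that serves as a hepatocyte model. All cells were first held for 16 h in medium without serum. The insulin group (3 libraries) then received 100 nM insulin for 20 min, and the untreated group (3 libraries) received none. Of the 12 samples, the 6 inputs were not analysed here. Nothing in the labels says that replicates came from separate cultures, so the spread behind each p-value may be technical.

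The locus holds genes of the replication-dependent histones, the proteins that package new DNA during S phase. Histones H2A, H2B, H3 and H4 form the core of the nucleosome, and H1 binds the linker DNA between cores. Their genes are short and packed closely, often as divergent H2A and H2B pairs that share a promoter. The same stretch of chromosome 6 carries butyrophilin genes, zinc finger genes and many transfer RNA genes. FoxK1 binds forkhead motifs and recruits corepressors, and in liver cells insulin signalling is known to favour its presence in the nucleus. The labels imply 1 question here, namely whether FoxK1 calls along the histone genes differ after insulin.

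In the RefSeq gene table of GRCh38.p14, chromosome 6 had 55 protein-coding genes of these families, 6 for H1, 12 for H2A, 15 for H2B, 10 for H3 and 12 for H4. They stood in 3 runs along the gene order, a run ending where more than 15 other genes followed. The first run, H2AC1 to H4C8, had 34 of them. Between it and the second came 84 genes, among them 47 transfer RNA genes and the coding genes BTN3A2, BTN2A2, BTN3A1, BTN3A3, BTN2A1 and BTN1A1 (butyrophilins, members of the immunoglobulin superfamily), HMGN4 (a nucleosome-binding protein), ABT1 and ZNF322. The second run, H2BC11 to H2AC12, had 5 histone genes. A further 77 genes, 51 of them transfer RNA genes, separated it from the third run, H2BC13 to H2BC17, with 16. The peaks are on hg19 and the table on another build, so the order of genes is given as background and no region was assigned to a gene.

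Promoter sequences of 50 of the 55 genes were in the RefSeq promoter table (GRCh38.p14, 250 bases before to 50 after the start). The shared H2A and H2B promoter that holds forkhead letters is shown first, because it was the only one with a match. On the table's own build this pair lies before position 26000001, the window's first position on hg19, so the match is not taken as part of the window. After it, the first gene of each family from H1-1 onwards that had a sequence in the table is shown, to let the core promoter letters be read. Each sequence is the 250 bases before the start, on the strand of its gene (plus for H3C1, minus for the others). Capitals mark, on either strand, the forkhead letters GTAAACA, which FoxK1 and related factors bind. They also mark the letters CCAAT, bound by the factor NF-Y in many promoters. The third kind marked is TATAAA, the core of the box that binds the TATA-binding protein.
H2AC1: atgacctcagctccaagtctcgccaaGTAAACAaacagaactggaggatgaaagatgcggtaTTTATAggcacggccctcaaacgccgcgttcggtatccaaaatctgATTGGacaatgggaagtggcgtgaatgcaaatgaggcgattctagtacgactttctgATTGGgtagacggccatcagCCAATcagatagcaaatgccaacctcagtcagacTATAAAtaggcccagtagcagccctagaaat
H1-1: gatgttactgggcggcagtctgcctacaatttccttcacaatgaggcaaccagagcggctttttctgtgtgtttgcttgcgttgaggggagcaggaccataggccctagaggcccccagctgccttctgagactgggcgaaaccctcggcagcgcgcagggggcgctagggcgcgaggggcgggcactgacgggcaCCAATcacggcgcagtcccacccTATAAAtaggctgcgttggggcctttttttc
H2AC4: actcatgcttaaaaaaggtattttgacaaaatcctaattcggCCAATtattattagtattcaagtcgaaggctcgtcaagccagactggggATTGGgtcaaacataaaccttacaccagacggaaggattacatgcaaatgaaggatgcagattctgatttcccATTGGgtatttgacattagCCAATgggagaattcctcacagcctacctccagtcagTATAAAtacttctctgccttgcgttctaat
H2BC3: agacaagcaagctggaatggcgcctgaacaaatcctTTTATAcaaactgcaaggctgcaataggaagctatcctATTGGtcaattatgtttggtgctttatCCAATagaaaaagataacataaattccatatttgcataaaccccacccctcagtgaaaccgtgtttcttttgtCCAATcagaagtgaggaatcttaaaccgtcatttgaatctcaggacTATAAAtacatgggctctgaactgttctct
H3C1: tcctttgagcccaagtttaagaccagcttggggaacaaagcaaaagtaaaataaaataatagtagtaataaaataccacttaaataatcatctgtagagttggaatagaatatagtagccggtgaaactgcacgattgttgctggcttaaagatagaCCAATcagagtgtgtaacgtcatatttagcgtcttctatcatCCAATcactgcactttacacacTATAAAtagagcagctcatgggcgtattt
H4C2: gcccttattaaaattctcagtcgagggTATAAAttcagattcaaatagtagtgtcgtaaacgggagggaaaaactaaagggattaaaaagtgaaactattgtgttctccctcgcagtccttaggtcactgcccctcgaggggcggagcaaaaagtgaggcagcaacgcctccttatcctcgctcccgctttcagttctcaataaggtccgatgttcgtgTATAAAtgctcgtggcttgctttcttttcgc

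The forkhead letters GTAAACA, searched on both strands, were in the promoters of 2 of these 50 genes (4%), against 4.19% of the 27305 genes in the whole table. Both were on 1 stretch of DNA, since the H2AC1 and H2BC1 windows face each other and share 286 bases. In H2AC1 the match began 224 bases before the start. The 250 bases before the H2BC1 start held no match, and there it fell within the 50 bases after the start. CCAAT was in 43 of 50 (86.0%), against 39.7% of all genes, and TATAAA in 34 of 50 (68.0%), against 13.99%. CCAAT was found in every H1, H2A, H2B and H3 promoter in the table, and in 3 of the 10 H4 promoters. The B box of transfer RNA genes was in none of the 50 and in 0.231% of all genes. A match is a description of the letters only.

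The window was cut at round positions into the proximal subcluster (26000001 to 26300000), the gap (26300001 to 27000000) and the distal subcluster (27000001 to 28000000). These limits come from general knowledge of the locus and were not checked against an hg19 annotation. The segment names are therefore labels for positions, and the gene order above has 2 of its 3 histone runs after the first long stretch of other genes, with 77 genes between them. FoxK1 regions were most closely packed in the proximal subcluster, in insulin and untreated libraries alike. The insulin libraries had 11.3, 10.3 and 8.67 peaks per 100 kb there, and the untreated libraries had 10.3, 10.0 and 8.33. In the gap the insulin libraries had 5.29, 5.57 and 4.29 peaks per 100 kb, and the untreated libraries had 5.29, 4.43 and 3.57. The distal subcluster held 5.10, 4.20 and 3.10 peaks per 100 kb in the insulin libraries and 4.50, 3.10 and 2.50 in the untreated ones. Every library had its highest density in the proximal subcluster, and no gap or distal value reached the lowest proximal one.

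**Figure D1:**
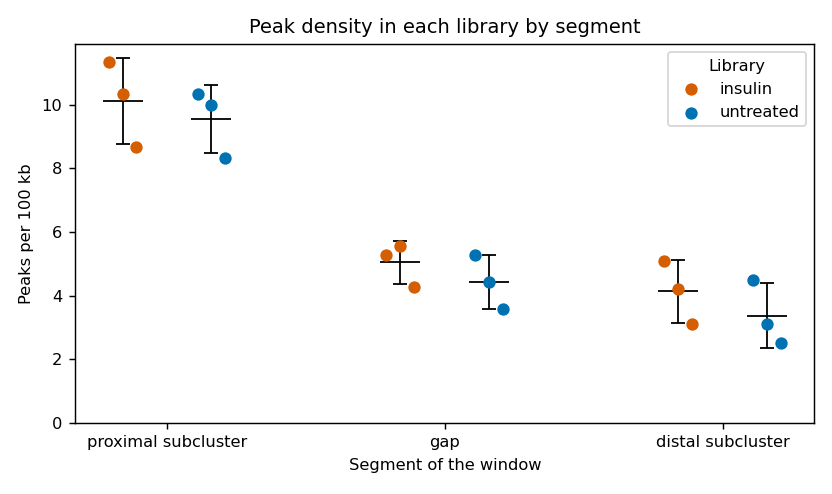
Peaks per 100 kb (vertical axis) in each segment of the window. Each point is 1 library, insulin left of untreated, and bars give the mean and SD of 3 libraries; every proximal value (8.33 to 11.3) lies above every gap and distal value (2.50 to 5.57).

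Regions of the proximal subcluster were also the ones most often found in every library. Of the 140 regions, 50 (35.7%) were called in all 6 libraries, against 23.3% of regions genome-wide. By segment the count was 19 of 33 in the proximal subcluster (57.6%), 18 of 51 in the gap (35.3%) and 13 of 56 in the distal subcluster (23.2%). Regions called in 1 library numbered 32 (22.9%), against 34.3% genome-wide, with 6 in the proximal subcluster, 14 in the gap and 12 in the distal subcluster. The count of 50 depends on what counts as shared. It was 21 where a library counted only if its peaks covered 50% of the region, 31 where regions were built from summits within 100 bp, and 78 without replicate 3 of both conditions. Genome-wide shares under these other rules are not given here, so the 23.3% can be set beside the count of 50 only.

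**Figure D2:**
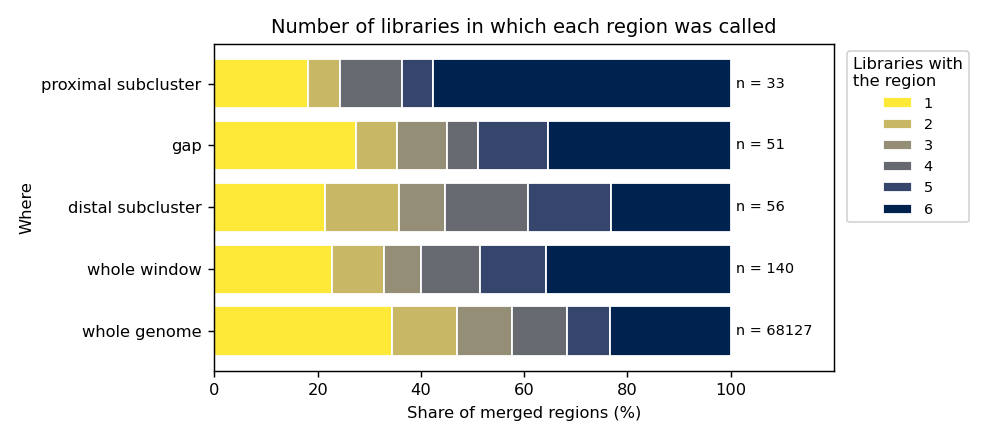
Share of merged regions (horizontal axis, percent) by the number of libraries in which they were called, for the 3 segments, the window and the genome. The part called in all 6 libraries is 57.6% in the proximal subcluster, 35.3% in the gap, 23.2% in the distal subcluster and 23.3% genome-wide.

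Set against other stretches of the genome, the window was dense. With 50 regions called in all 6 libraries it ranked 9 of 1417 windows of 2 Mb on chromosomes 1 to 22 and X that held any region, where the median window had 8 and the highest 67. By regions of any library it ranked 36, with 140 against a median of 39. Of 7506 windows of 300 kb that held any region, 4 held at least as many all-library regions as the 19 of the proximal subcluster. The median of these windows was 1. They lie on a fixed grid, while the limits of the proximal subcluster were chosen by hand and lie off that grid, so this is a description only. Each list's local background, worked out from the authors' fold and p-value, was raised in the same place. At the peaks of the window its median was 1.56, 1.46 and 1.33 times that of the whole list in the insulin libraries and 1.57, 1.38 and 1.36 times in the untreated libraries. Its part in the density of calls was not tested.

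The calls along the distal subcluster were uneven. Its first 200 kb, up to 27200000, had 14 regions and 1 called in all 6 libraries. The 500 kb from 27200001 to 27700000 had 22 regions and 4 called in all 6. The last 300 kb, from 27700001, had 20 regions and 8 called in all 6, or 2.67 per 100 kb, close to the 2.57 per 100 kb of the gap. The proximal subcluster had 6.33 per 100 kb. No library had a peak between 27871118 and 28000000, the last 129 kb of the window. The longest stretch with no peak of any library was 217 kb in the gap, from 26706566 to 26923839.

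**Figure D3:**
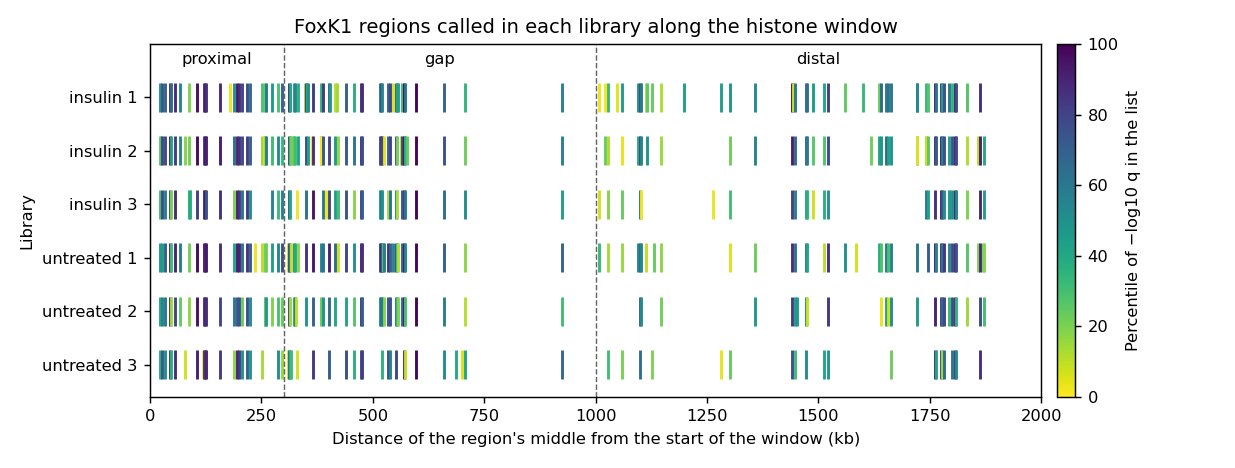
Regions called in each library (rows, insulin above untreated) along the window, by the distance of the region's middle from the window's start in kb. Colour gives the percentile of the region's strongest −log10 q in that list, and dashed lines separate the segments; marks are dense from 0 to 300 kb in all 6 rows, and no mark lies between 706 and 925 kb.

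Neighbouring sites stood close together. The median distance between the middles of neighbouring regions called in all 6 libraries was 8618.5 bp in the proximal subcluster, 17972 bp in the gap and 15939 bp in the distal subcluster. Outside the window it was 38677.5 bp on chromosome 6, and over the genome 47473 bp. In the last 300 kb of the distal subcluster it was 6719 bp, but over 7 distances only, against 18 in the proximal subcluster. That stretch had 2.67 such regions per 100 kb, against 6.33 in the proximal subcluster. The closest pair lay in the gap, at 26473836 to 26474739 and 26475047 to 26475916, with 307 bp between them and middles 1194 bp apart. The widest pair of neighbours were 27099524 to 27101159 and 27440153 to 27441476, whose middles lay 340 kb apart.

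By median width, the shared sites of the proximal and of the distal subcluster exceeded those of the gap. Among regions shared by all 6 libraries the median width was 1598 bp in the proximal subcluster, 1145.5 bp in the gap and 1576 bp in the distal subcluster, against 1092 bp over the genome. At least 2000 bp were spanned by 7 of 19 proximal (36.8%), 1 of 18 gap (5.56%) and 4 of 13 distal regions (30.8%), and by 9.76% of such regions genome-wide. All 4 distal ones lay in the last 300 kb of that segment, where the median width was 1829 bp over 8 shared regions. In its middle 500 kb the median was 1314.5 bp over 4 shared regions. Its first 200 kb had 1 shared region, of 1636 bp. A merged region spans the peaks of every library, so the width of the strongest peak was also read in each list by itself. Over these regions its median in the proximal subcluster was 838, 1314 and 825 bp in the insulin libraries and 1226, 935 and 746 bp in the untreated libraries. In the gap it was 810, 999 and 637.5 bp in the insulin libraries and 894.5, 704.5 and 593.5 bp in the untreated libraries. In the distal subcluster it was 1067, 1413 and 896 bp in the insulin libraries and 1175, 1049 and 878 bp in the untreated libraries. The genome medians were 702, 892 and 585 bp in the insulin libraries and 780, 679 and 571 bp in the untreated libraries. By these medians all 6 libraries had wider strongest peaks in the proximal and in the distal subcluster than in the gap. In the gap they were wider than over the genome. Insulin replicate 1 had the least difference between the proximal subcluster and the gap. Over all peaks, shared or not, only the proximal median was above that of the gap in all 6 libraries. The distal median was 503, 733 and 571 bp in the insulin libraries and 605, 732 and 414 bp in the untreated ones. The gap had 556, 734 and 459.5 bp in the insulin libraries and 733, 580 and 458 bp in the untreated ones. In both replicate 3 libraries the gap was below the whole list (474 bp after insulin, 478 bp without it).

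**Figure D4:**
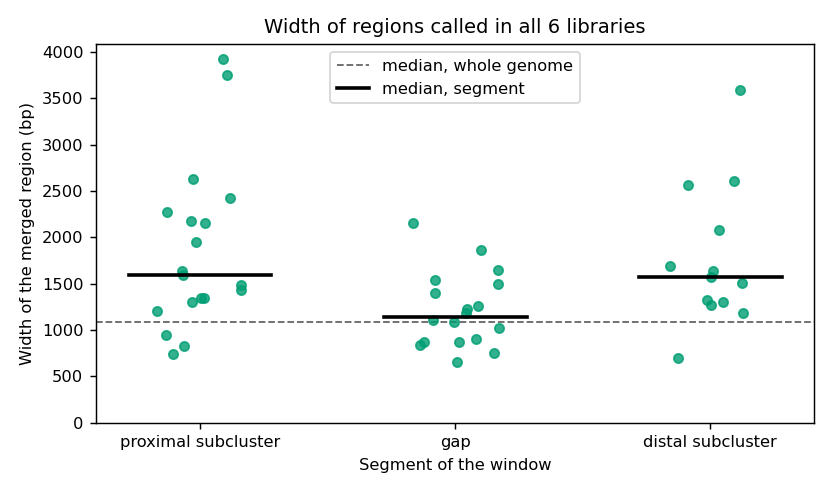
Width in bp (vertical axis) of each region called in all 6 libraries, by segment; points are regions spread sideways for visibility, thick lines are segment medians (1598, 1145.5 and 1576 bp) and the dashed line is the genome median of 1092 bp. All but 1 of the regions of at least 2000 bp lie in the proximal and distal subclusters.

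Shared sites of the proximal and distal subclusters often held several summits of 1 library. A merged region spans every peak it holds, so holding several is tied to its width by construction. At least 1 library placed more than 1 peak in 9 of the 19 proximal regions called in all 6 libraries (47.4%) and in 6 of the 13 distal ones (46.2%). The same held for 2 of the 18 gap regions (11.1%) and 17.4% of such regions genome-wide. In single libraries, the insulin lists had 7, 2 and 4 proximal regions with several peaks and the untreated lists had 5, 5 and 2. Over all 140 regions, neighbouring summits of 1 library in 1 region were a median of 997 bp apart, with a range of 569 to 2487 bp over 57 pairs of neighbours.

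The region at 26103363 to 26105791 was the strongest of the proximal subcluster and shows such a pair of summits. Its right summit fell between 26105135 and 26105156 in all 6 libraries, a spread of 21 bp. The fragments counted at that summit were 136, 218 and 61 in the insulin libraries and 219, 127 and 65 in the untreated libraries. Insulin replicates 1 and 3 and untreated replicates 2 and 3 had a separate peak on its left with a summit between 26104034 and 26104104. There the fragments numbered 68 and 34 in the insulin libraries and 66 and 36 in the untreated ones. Insulin replicate 2 and untreated replicate 1 had a single wide peak instead, of 2284 and 2149 bp. By fragments the right summit was the higher of the pair in these 4 lists. By fold it was higher in 3 of them, while insulin replicate 3 had a fold of 5.43 at the left summit and 4.63 at the right.

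The widest region of the window, 26155537 to 26159457 (3921 bp), held 13 peaks. Its strongest summits lay within 38 bp of each other in all 6 libraries, between 26158235 and 26158273. Its percentiles were 88.7, 91.9 and 85.8 in the insulin lists, against 86.8, 78.7 and 82.5 in the untreated lists. The next in width, 26196791 to 26200540 (3750 bp), had its main summit between 26199668 and 26199719 in the 6 libraries. The region at 27860528 to 27864118 (3591 bp) in the distal subcluster had its strongest summits as far as 1193 bp apart, because insulin replicate 1 had its strongest peak at 27862304 and the other 5 had theirs between 27861111 and 27861191.

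Over the 50 regions called in all 6 libraries, the outermost of the 6 strongest summits lay a median of 126.5 bp apart, against 94.0 bp genome-wide. The median was 110 bp in the proximal subcluster, 193.5 bp in the gap and 73.0 bp in the distal subcluster. For single pairs of libraries the median distance ran from 28.5 to 50 bp within a treatment and from 22 to 54.5 bp between treatments. These ranges overlap almost entirely.

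The strength of a site is given as the percentile of its −log10 q in its own list, where 0 is the weakest and 100 the strongest peak. Percentiles of lists that differ in length show no change between conditions. The strongest site of the window lay in the gap, at 26595931 to 26597788. Its percentiles were 99.1, 98.6 and 99.1 in the insulin lists, against 98.7, 98.8 and 98.4 in the untreated lists. Its ranks were 420, 633 and 253 after insulin and 583, 371 and 410 without it. The fold over background in the authors' lists was 24.6, 20.3 and 24.0 in the insulin libraries and 12.9, 12.6 and 16.5 in the untreated libraries. The summits rested on 277, 313 and 114 fragments in the insulin libraries and 301, 202 and 87 in the untreated libraries. The folds did not overlap between conditions, while the percentiles and fragments did. Among the window's 50 regions called in all 6 libraries, every insulin fold was above every untreated fold at 19 (38%), against 34.2% of such regions genome-wide, a share near that of the genome. The reverse was seen at none of the 50, against 0.00629% genome-wide. The fold belongs to each list by itself, and the median folds of whole lists did not overlap either, at 5.95, 5.58 and 4.78 in the insulin lists, against 4.65, 4.18 and 4.21 in the untreated lists.

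The proximal subcluster was led by the region at 26103363 to 26105791, with percentiles of 96.2, 97.5 and 81.1 in the insulin lists, against 97.5, 95.8 and 91.1 in the untreated lists. Insulin replicate 3 was the lowest, and the conditions overlapped. The next was 26122723 to 26124871, with 92.3, 93.3 and 92.1 in the insulin lists, against 90.1, 90.5 and 85.8 in the untreated lists. Every insulin percentile was above every untreated one here, as at 3 of the window's 50 regions called in all 6 libraries (6%, against 8.65% genome-wide). The reverse held at 1 of the 50 (2%, against 0.85% genome-wide). A dense group surrounded it, since 26121081 to 26122387 (percentiles 83.2 to 92.6) and 26125664 to 26126867 (74.0 to 93.3) were also among the 5 strongest. The remaining site of these 5, at 26195443 to 26196274, ranged from 73.4 in untreated replicate 2 to 93.7 in insulin replicate 1.

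In the gap, 26568404 to 26569241 came next, with percentiles of 97.5, 94.9 and 82.8 in the insulin lists, against 92.8, 90.7 and 87.1 in the untreated lists. The insulin values there enclosed the untreated ones. It was followed by 26364662 to 26366202 (69.9 to 94.3), 26473836 to 26474739 (78.9 to 90.1) and 26475047 to 26475916 (69.3 to 87.8).

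The 5 strongest sites of the distal subcluster included 4 in its last 300 kb. At 27804336 to 27806946 the percentiles were 91.8, 92.8 and 92.9 in the insulin lists, against 91.9, 88.3 and 86.1 in the untreated lists. The other three of that stretch were 27759429 to 27761510 (86.5 to 91.6), 27860528 to 27864118 (77.1 to 90.9) and 27774345 to 27776911 (75.5 to 91.1). The remaining site of the 5, 27440153 to 27441476, had 94.8, 91.7 and 80.1 in the insulin lists, against 86.6, 81.5 and 75.3 in the untreated lists. Insulin and untreated values overlapped at all of these distal sites.

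**Figure D5:**
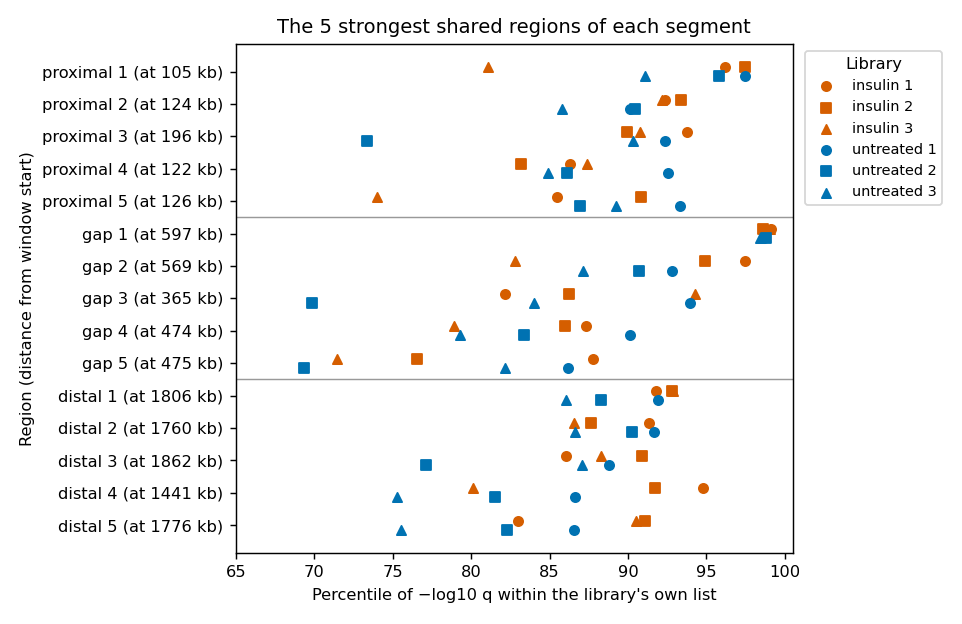
Percentile of −log10 q within each library's own list (horizontal axis) for the 5 strongest shared regions of each segment, labelled by distance from the window's start. Colours give the condition, insulin drawn above untreated, and shapes give the replicate number; the leading gap region stays between 98.4 and 99.1 in all 6 lists.

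The sites kept much the same order in every list. Over the 50 regions called in all 6 libraries, Spearman's rho of the percentiles was a median of 0.83 over the 6 pairs of lists from the same treatment (0.76 to 0.90) and 0.83 over the 9 pairs from different treatments (0.66 to 0.85). Genome-wide, over 15887 regions, the same medians were 0.79 and 0.78. Sites share their sequence and local background in all lists, so rho is a description over sites. Apart from the leading sites the window was of ordinary strength by percentile. The median percentile of its peaks was 54.96, 54.5 and 51.7 in the insulin lists, against 55.5, 48.4 and 50.9 in the untreated lists, where the whole list has 50 by definition. By segment the highest median was that of the proximal subcluster, at 65.9, 63.5 and 62.9, in the insulin lists. In the untreated lists it was 58.0, 50.3 and 63.0, and in untreated replicate 1 the gap stood above it at 65.1. The window's regions called in 1 library had a median percentile of 14.9, against 69.7 for those called in all 6. Genome-wide the same medians were 11.9 and 73.0.

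The number of peaks in the window did not differ between conditions beyond the spread of the libraries. The insulin libraries had 122, 112 and 87 peaks and the untreated libraries had 113, 92 and 75. The means were 107 ± 18 after insulin and 93.3 ± 19.0 without it (SD, n = 3 each), a difference of 13.7 peaks (exact permutation test, two-sided, p = 0.5; with 3 against 3 it cannot go below 0.1). The groups overlapped, and in each condition replicate 3 had the fewest. When every list was cut to its 26082 strongest peaks, as many as the shortest holds, the difference was -1.33. Single libraries moved it too. The difference was 6.17 when insulin replicate 1 was left out and 23.7 when insulin replicate 3 was, and leaving out untreated replicate 1 or 3 gave 23.5 or 4.5.

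As a share of its own list the window held 0.253%, 0.249% and 0.316% of the peaks of the insulin libraries and 0.253%, 0.291% and 0.288% of those of the untreated libraries. The means were 0.273% ± 0.0379 after insulin and 0.277% ± 0.0209 without it (SD, n = 3 each; two-sided exact permutation p = 0.9). The difference of -0.00432 percentage points changed its sign with single libraries left out. It was 0.00547 percentage points when insulin replicate 1 was left out and 0.00772 when insulin replicate 2 was. Leaving out untreated replicate 2 gave 0.00245, and leaving out untreated replicate 3 gave 0.000966. Peaks covered 83.1, 105.6 and 62.8 kb of the window in the insulin libraries and 94.9, 71.5 and 50.2 kb in the untreated libraries, with a p of 0.5 (exact permutation test, two-sided, n = 3 each). Their mean width was 681, 943 and 722 bp in the insulin libraries and 840, 777 and 669 bp in the untreated libraries.

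The same held in each segment. The proximal subcluster had 34, 31 and 26 peaks in the insulin libraries and 31, 30 and 25 in the untreated libraries, a difference of 1.67. The gap had 37, 39 and 30 in the insulin libraries and 37, 31 and 25 in the untreated libraries, a difference of 4.33. The distal subcluster had 51, 42 and 31 in the insulin libraries and 45, 31 and 25 in the untreated libraries, a difference of 7.67. The two-sided exact permutation p was 0.6, 0.5 and 0.5 in that order (n = 3 each), and 0.6 for each after Benjamini-Hochberg adjustment over the 3 segments. The proximal difference was -0.167 without insulin replicate 1 and also without untreated replicate 3. Leaving out insulin replicate 2 or 3 gave a gap difference of 2.5 or 7, and leaving out untreated replicate 1 or 3 gave 7.33 or 1.33. The distal difference was 2.83 or 12.8 with insulin replicate 1 or 3 left out, and 13.3 or 3.33 with untreated replicate 1 or 3 left out.

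The calls of the 2 conditions were also counted region by region. As many insulin as untreated libraries held 74 of the 140 regions (52.9%, against 39.9% genome-wide). These balanced regions include the 50 called in all 6 libraries (35.7%, against 23.3% genome-wide), which are balanced by definition. More insulin than untreated libraries held 51 (36.4%, against 40.2% genome-wide), and more untreated libraries held 15 (10.7%, against 19.9% genome-wide). In the proximal subcluster 25 of 33 regions were balanced (75.8%), in the gap 23 of 51 (45.1%), and in the distal subcluster 26 of 56 (46.4%). Of these, 19, 18 and 13 in that order were called in all 6 libraries. At least 2 insulin libraries held 95 of the 140 regions, against 36996 of 68127 genome-wide. At least 2 untreated libraries held 87 of the 140, against 29726 of 68127 genome-wide. The 83 regions that met both rules made up 87.4% of the 95, against 74.3% genome-wide, and 95.4% of the 87, against 92.4% genome-wide. The 25 regions of the proximal subcluster that passed this rule after insulin were the same 25 that passed it without insulin.

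No region was called in 3 of 3 untreated libraries and none of the insulin ones, where the share genome-wide is 0.0352%. The reverse was seen for 2 regions (1.43%, against 0.376% genome-wide), both in the distal subcluster. They were weak in their lists. At 27740022 to 27740718 the percentiles were 33.0, 20.1 and 58.9 in insulin replicates 1, 2 and 3, with folds of 3.84, 2.94 and 5.74 and summits of 28, 34 and 22 fragments. At 27486665 to 27487370 the percentiles were 45.3, 26.3 and 7.47, with folds of 4.77, 3.39 and 2.93 and summits of 30, 33 and 13 fragments. Presence in every insulin library and no untreated one cannot bring an exact test of 1 region below 0.1, so neither counts as changed. With lists of equal length 1 of the window's regions met the rule. Without insulin replicate 3 the number was 6, but a region then needed calls in only 2 insulin libraries. That count is therefore no sign of more insulin-only sites. The share genome-wide is not given for either setting, so 0.376% compares with the count of 2 only.

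With a looser rule, 6 regions were called in at least 2 insulin libraries and no untreated one (4.29%, against 4.18% genome-wide). Of these, 5 lay in the distal subcluster and 1 in the gap. A single region, 26310180 to 26310531 in the gap, was called in 2 untreated libraries and no insulin one (0.714%, against 0.847% genome-wide). Both shares are near those of the genome.

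Regions missing from 1 library were mostly missing from untreated replicate 3, the shortest list. Of the 18 regions called in 5 libraries (12.9%, against 8.48% genome-wide), 13 lacked untreated replicate 3, 4 lacked untreated replicate 2 and 1 lacked insulin replicate 3. Genome-wide, untreated replicate 3 was the missing one in 48.6% of such regions and insulin replicate 3 in 31.9%. The 13 were 9.29% of the window's regions, against 4.12% genome-wide. All 7 such regions of the gap were of this kind. A further 12 regions (8.57%, against 6.77% genome-wide) were called in replicates 1 and 2 of both conditions and in neither replicate 3 library. Regions found in replicate 3 libraries only numbered 8 (5.71%, against 9.28% genome-wide). Insulin replicate 3 held 78 of the 140 regions and untreated replicate 3 held 66, the fewest of each condition. At the summits of the window, insulin replicate 3 had a median of 25.0 fragments and untreated replicate 3 a median of 24.0. The other libraries had 35 and 50 after insulin and 58 and 40.5 without it. The part of depth in these missing calls was not tested.

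At the limits of the window, the first region inside was 26021292 to 26022640 and the last was 27870237 to 27871117. The nearest outside were 25992026 to 25993830, called in all 6 libraries with a mean percentile of 83.8, and 28021563 to 28021943, called in 1 untreated library.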

How the data were processed

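Per the submitters' processing notes, fastp, Bowtie2, SAMtools and MACS2 were used with build hg19; their versions and thresholds, and any use of inputs, are not stated. The authors' lists hold the peaks of 1 library each, per the peak names in the files. Each deposited fold is a ratio to local background within 1 library. The authors' −log10 p-values and −log10 q-values grow with depth. Their deposited score lay no more than 1 from 10 times −log10 p at 100% of peaks. These values were used to describe and rank peaks within a list.

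Peaks were merged across the genome where they shared 1 bp. Where a library had several peaks in a region, the strongest stood for it. Summit fragments were solved from the Poisson p and a fold equal to fragments plus 1, divided by background plus 1, and 100% of peaks gave a single whole number. Read totals are unknown. Values of 3 insulin and 3 untreated libraries were compared with an exact permutation test, two-sided, over 20 assignments. The window, segments, promoter motifs and gene families were chosen with earlier results of these data known. Regions named were the 5 strongest of each segment called in all 6 libraries, all one-sided regions, the widest region and the closest and widest neighbours; others shown were chosen after their values were seen. Genes at regions were not computed, since the annotation at hand is on another build. The scripts were tested on simulated data. Coordinates are 1-based. Alternatives were each library left out, −log10 q of at least 5, equal list lengths, other overlap rules, other segment limits (26400000 and 27100000), no replicate 3, and the replicate number as a block. Python 3.11.15, numpy 2.4.6, pandas 2.3.3, scipy 1.17.1 and matplotlib 3.10.9 were used.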

Additional observations from a re-analysis of the deposited data

How the results depend on the processing

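The insulin-minus-untreated difference in covered length and in distal peaks kept its sign in every alternative run. With each library left out in turn the difference ranged from 4.5 to 23.7 peaks in the window, from -0.0262 to 0.00772 percentage points for the share of the list, from 645.5 to 23007 bp for covered length, from -0.167 to 3.83 peaks in the proximal subcluster, from 1.33 to 7.33 in the gap and from 2.83 to 13.3 in the distal subcluster. Regions called in all remaining libraries ranged from 50 to 63, insulin-only regions from 2 to 6 and untreated-only regions from 0 to 1. Each of these counts rests on a looser requirement than the main one, since a library is absent. With lists of equal length the difference was -1.33 peaks in the window, -0.333 in the proximal subcluster and -3 in the gap, and 1 region was insulin-only. With −log10 q of at least 5 the share difference was 0.0149 percentage points and 1 region was insulin-only. Without replicate 3 of both conditions, 78 regions were called in all 4 libraries left and 6 were insulin-only; fewer libraries make both rules easier to meet. Requiring 50% cover gave 21 regions in all 6 libraries. Building regions from summits within 100 bp gave 31, with 1 insulin-only and 1 untreated-only region; the cause was not tested. The median spacing was 8354 bp for regions called in at least 2 libraries, against 15159 bp for those in all 6; more regions leave shorter distances. The median rho over pairs of lists was 0.83 without replicate 3, an alternative chosen after seeing the data.

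The block by replicate number was not taken as a true pairing. Deviations from the group mean over all regions correlated, between libraries with the same number, at 0.101, 0.0606 and 0.266. With the replicate block the differences are the same by construction (13.7 peaks in the window, -0.00432 percentage points of the list, 11648 bp covered, and 1.67, 4.33 and 7.67 peaks by segment). The two-sided exact sign-flip p over 3 pairs was 0.25 for peaks in the window, the smallest possible, 1 for the share, 0.5 for covered length, and 0.25, 0.5 and 0.25 for the segments. No alternative gave a p under 0.2. The lowest fragment number at an insulin-only summit was 13, and the part of depth in such calls was not tested.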
